A study of Mus musculus with 62 samples.

Results

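The nuclear-encoded respiratory chain genes were taken as all genes named Nduf followed by a, b, c, s or v, Sdha to Sdhd, and all genes whose names begin with Uqcr, Cox4 to Cox8 or Atp5. Of 106 matching entries among the 53975 gene identifiers, 8 carried a pseudogene name and 6 had a mean below 1 TPM over the hippocampal libraries (TPM is an abundance corrected for transcript length that sums to the same total in every library), which left 92 genes. By name, 39 belonged to complex I, 8 were complex I assembly factors (Ndufaf), 4 belonged to complex II, 8 to complex III, 16 to complex IV and 17 to complex V. The genes just inside the minimum were Cox7a1 at a mean of 1.87 TPM and Cox6a2 at 2.97 TPM, and the closest outside it was Ndufa4l2 at 0.811 TPM. Of the 92 genes, 3 (Ndufb4c, Ndufs6b and Cox6c2) are annotated as processed pseudogenes in GENCODE M21, and reads of such near-identical copies may be split between them and their parent genes. Ndufa4 was counted with complex I by its name, although its protein is known as a subunit of complex IV.

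The respiratory chain passes electrons from NADH (complex I) and succinate (complex II) through complex III to oxygen at complex IV, and the proton gradient built on the way drives ATP synthesis at complex V. A few core subunits are encoded in mitochondrial DNA, while most subunits and all assembly factors are encoded in the nucleus and imported. Neurons depend heavily on this pathway to restore ion gradients after firing, and many of its nuclear genes are known targets of NRF1, GABPA, YY1 and ESRRA, with the coactivator PGC-1α (Ppargc1a).

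The mice were APP NL-G-F, a strain carrying a humanised amyloid sequence with familial Alzheimer mutations, or wild-type C57BL/6J (WT), and both hippocampi of an animal were pooled into 1 library. There were 3 APP and 2 WT animals at 3 months, 3 and 3 at 6 months, and 3 and 3 at 12 months. HT-22 cells, an immortalised mouse hippocampal line at passage 4, received 30 uM amyloid beta 1-42 peptide (Aβ42) or the same peptide in reversed sequence, dissolved in DMSO, together with a locked nucleic acid (LNA) for 24 h. The LNA was a scramble sequence (labelled 50 uM, 4 libraries with each peptide) or directed against Hsf1 (150 nM, 3 libraries with each peptide), so the labelled doses of the LNAs differ.

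The 31 libraries held rRNA-depleted long RNA, and each file gave TPM. Relative depth, read from the ratio of the coverage and FPKM columns, spanned 1.42 to 3.04 over the hippocampal libraries and 0.724 to 2.6 over those of HT-22 cells. The 10 most abundant transcripts, mostly mitochondrial rRNA, 7SL RNA and rRNA-like genes, took 62.6 to 66% of TPM in WT at 6 months and 40.2 to 56.1% in APP at 6 months, and 43.7 to 61.7% in HT-22 cells given Aβ42 and anti-Hsf1 against 24.1 to 36.2% in the other HT-22 groups. All values below, unless said otherwise, are TPM divided by a median-of-ratios factor set within the mouse or the HT-22 libraries (scaled TPM). The WT libraries at 6 and 12 months held Ddx3y (18.4 to 28 scaled TPM) and almost no Xist (0.264 to 0.518), whereas the WT libraries at 3 months and every APP library held Xist (70.6 to 137) and at most 0.0788 of Ddx3y. Genotype and this difference cannot be told apart at 6 and 12 months.

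The labelled tissue was checked against marker lists. The 10 neuronal markers summed to 2413 to 2802 scaled TPM in the 6-month hippocampi. In the HT-22 groups they summed to 26.4 to 54, with 5 to 8 of the 10 at 0 in every library of a group, while the 8 fibroblast and mesenchymal markers summed to between 5968 and 11160. Hsf1, the target of the LNA, stood at 46.9 ± 4.04 (SD, n = 3) with Aβ42 and anti-Hsf1 against 61.4 ± 9.45 (n = 4) with scramble, and at 47.8 ± 4.78 (n = 3) against 53.5 ± 7.92 (n = 4) with the reverse peptide. The ranges of the anti-Hsf1 and scramble libraries overlapped for both peptides.

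In the hippocampus the 92 genes had mean levels from 1.87 to 457 TPM, with a median of 52.3 TPM. The highest was Atp5b, the catalytic beta subunit of ATP synthase, at 360 to 613 scaled TPM over the 17 mouse libraries. The next tier held Cox4i1, the structural subunit of cytochrome c oxidase that is present in most tissues, at 178 to 420 scaled TPM, and Cox8a at 204 to 376. At the other end, the muscle-type subunits Cox6a2, Cox7a1 and Cox8b and the testis-type Cox6b2 stayed at or below 10.6 scaled TPM in every mouse library. The median coefficient of variation of a gene over the mouse libraries was 22%.

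At 6 months, most of the chain was lower in APP than in WT hippocampus after scaling. The summed level of complex I genes was 1753, 1443 and 1482 scaled TPM in the APP libraries and 2781, 2176 and 2040 in the WT libraries. Complex III summed to 472, 368.7 and 403.4 in APP and to 768, 655.9 and 553.1 in WT, and complex IV to 1366, 1148 and 1121 against 2274, 1739 and 1645. For these 3 complexes and for complex V (1610, 1254 and 1499 against 2220, 1755 and 1731), every APP library lay below every WT library. Complex II was the exception in size, with 249.7, 205 and 221.9 in APP and 266.5, 250.3 and 262.2 in WT. Its genotypes also did not overlap, by a narrow margin. Nor did those of the assembly factors, at 82.37 to 91.65 in APP and 94.81 to 113.1 in WT. WT replicate 1 was the highest library of all 17 for 48 of the 92 genes, and APP replicate 2 the lowest for 41.

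**Figure D1:**
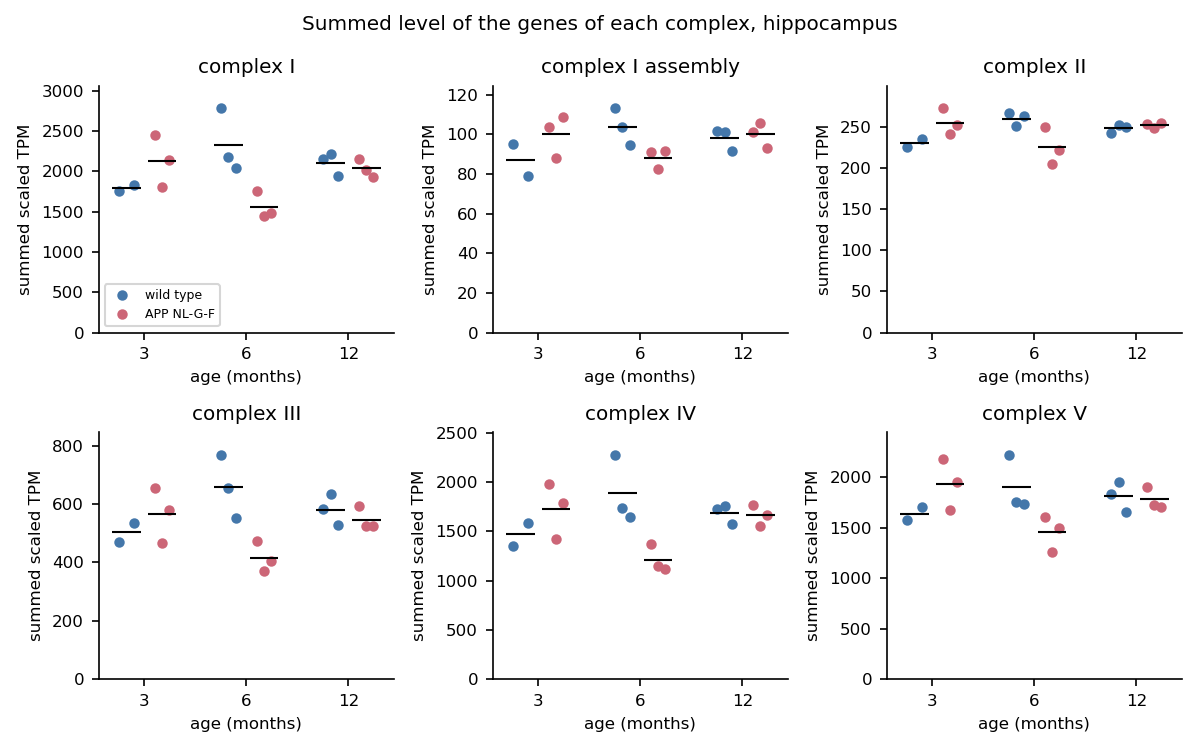
Summed scaled TPM (y axis) of the genes of each complex in every hippocampal library by age in months (x axis); each point is 1 library, blue for wild type and red for APP NL-G-F, and the black bar is the group mean. At 6 months the APP points lie below the WT points in every panel, by a narrow margin for complex II. Complex I is at 1443 to 1753 against 2040 to 2781 at that age. At 12 months the ranges of APP and WT overlap in each panel.

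Gene by gene, 18 of the 92 fell at 6 months and none rose (limma, adjusted p below 0.05 over 17840 genes), where 1.43% of all genes were called and 1.04% were called lower. The 18 were 6 genes of complex I, 1 of complex II, 4 of complex III, 5 of complex IV and 2 of complex V, and no assembly factor. The median log2 change of the 92 genes was -0.63, against 0 over all tested genes, and 87 were below 0. At an unadjusted p below 0.05, 61 of 92 genes were lower, beside 16.9% of all genes in either direction. Every APP library lay below every WT library for 56 of the 92 genes, which 10.1% of all genes did, and none lay above.

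The smallest adjusted p belonged to Sdhb, the iron-sulfur subunit that hands electrons from succinate dehydrogenase to ubiquinone (chr4:140961203-140979193, plus strand, GRCm38). It stood at 46.8, 38.5 and 39.5 scaled TPM in APP and at 75.3, 64.5 and 73.1 in WT at 6 months. The groups did not overlap, and the log2 change was -0.76 (SE 0.12, limma adjusted p = 0.00609, n = 3 and 3). The other 3 genes of complex II were not called. Sdha, the flavoprotein that oxidises succinate, was at 137, 119 and 130 in APP and 122, 124 and 132 in WT, a log2 change of 0.03 with a 95% interval of -0.16 to 0.21. The membrane anchors Sdhc and Sdhd had log2 changes of 0.08 and -0.29.

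Atp5h, a subunit of the peripheral stalk that holds the ATP synthase stator (chr11:115415689-115419962, minus strand), stood at 79.2, 72.2 and 82.1 in APP and 205, 149 and 139 in WT. Its log2 change was -1.05 (SE 0.17, limma adjusted p = 0.00668). Atp5j2, a small membrane subunit of the same enzyme, fell by 1.04 on the log2 scale (38.1, 36.9 and 30.3 against 101, 67.5 and 56.6). These were the only genes of complex V called out of 17. The catalytic subunits were not: Atp5b stood at 458, 360 and 420 in APP and 433, 394 and 427 in WT (log2 change -0.02, 95% interval -0.29 to 0.24), and Atp5a1 had a log2 change of -0.16 (limma adjusted p = 0.527).

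In complex III, small subunits that surround the catalytic core were called: Uqcrq (log2 change -1.15), Uqcr11 (-1.08), Uqcrb (-0.85) and Uqcr10 (-0.77). Uqcrq stood at 17.9, 16.5 and 17.3 in APP and 48.4, 38.1 and 33 in WT, and its adjusted p of 0.0487 was close to the threshold. Uqcr11 (chr10:80402997-80406830, minus strand) stood at 55.7, 35.5 and 33.5 in APP and at 108, 77.5 and 77.8 in WT. In both genes every APP library lay below every WT library. Uqcrc1, a core protein of the same complex, had 91.4, 69.8 and 76.2 against 92.1, 72.8 and 76.5, and its core partner Uqcrc2 had 79, 67.5 and 84.5 against 109, 94.2 and 92.5 (limma adjusted p = 0.14). The iron-sulfur protein gene Uqcrfs1 had a log2 change of -0.34 (limma adjusted p = 0.228).

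In complex IV the called genes were Cox6c2, Cox6c, Cox6b1, Cox7b and Cox7a2. Of these, Cox6c, Cox6b1, Cox7b and Cox7a2 encode subunits around the mitochondrially encoded core, and Cox6c2 is a processed pseudogene. Cox6c stood at 159, 126 and 90.3 in APP against 260, 245 and 200 in WT (log2 change -0.93, SE 0.17, limma adjusted p = 0.0187). Its processed copy Cox6c2 (29.6, 15.6 and 14.5 against 47.8, 38.6 and 31.8) may share reads with it. Cox7a2, the isoform found in most tissues, stood at 85.6, 70.1 and 70.2 against 148, 130 and 107. Cox6b1, which lies at the dimer interface of cytochrome c oxidase, stood at 105, 105 and 125 against 263, 179 and 187 (log2 change -0.88, limma adjusted p = 0.03). The more abundant Cox4i1 and Cox8a were not called: Cox4i1 had 246, 230 and 178 against 388, 275 and 368 (limma adjusted p = 0.245), and Cox8a had 259, 204 and 216 against 376, 286 and 251 (limma adjusted p = 0.23). The genotypes did not overlap for Cox4i1 and overlapped for Cox8a.

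Complex I had 6 called genes, all accessory subunits or a processed copy of one: Ndufa3 (log2 change -0.87), Ndufb5 (-0.83), Ndufb4c (-0.82), Ndufb11 (-0.81), Ndufb6 (-0.79) and Ndufs6 (-0.73). Ndufb5, a membrane-arm subunit, stood at 42, 30.9 and 37.9 in APP and 72, 64.6 and 61.2 in WT (limma adjusted p = 0.00909). The genotypes did not overlap for it. All 39 genes of the complex had a change below 0, and 31 had an unadjusted p below 0.05. Ndufb9, the most abundant of them in the hippocampus, stood at 111, 89.2 and 89.2 in APP and 183, 141 and 130 in WT and missed the threshold (log2 change -0.63, limma adjusted p = 0.0584). Ndufa4 likewise did not pass, at -0.67 (adjusted p = 0.061). The 8 assembly factors had a median of -0.15 and no call, with 6 of 8 below 0. The most abundant of them, Ndufaf5 and Ndufaf7, which modify subunits of the peripheral arm, had log2 changes of -0.19 and 0.07.

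**Figure D2:**
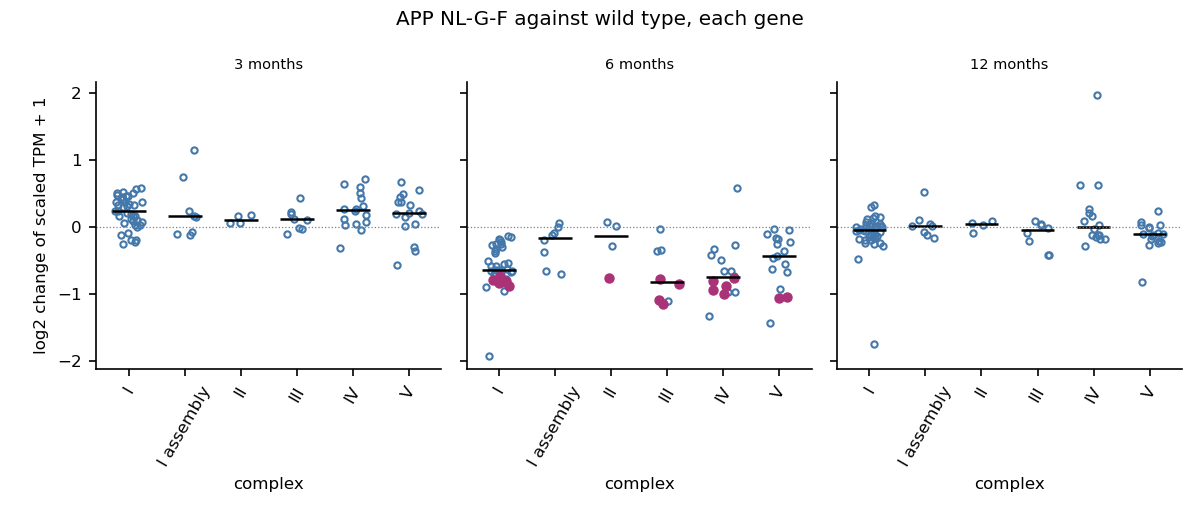
Log2 change of scaled TPM + 1, APP NL-G-F against wild type (y axis), for each of the 92 genes by complex (x axis), in 1 panel per age; filled purple points are genes called by limma at an adjusted p below 0.05, open points are not called, and bars are medians. At 6 months the medians are -0.64 for complex I, -0.81 for III and -0.74 for IV, while those of complex II and the assembly factors are -0.13 and -0.15.

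The direction of these levels depended on how the libraries were put on 1 scale. With TPM as deposited, 18 of the 92 genes were called higher in APP and 1 lower, where 57.6% of all genes were called higher, and 20 members had every APP library above every WT library, which 61.9% of all genes did. On that scale the members' median was 0.08 and that of all tested genes 0.60. A factor per library shifts abundant genes nearly alike, and low genes less on the log2(value + 1) scale. A similar gap between these medians on either scale is therefore largely by construction. A share within the chain does not depend on the scaling: complex III made up 8.36% ± 0.16 (SD, n = 3) of the summed level in APP and 9.23% ± 0.55 in WT, and complex V 29.3% ± 1.64 and 26.7% ± 0.6. Complex IV made up 23.3 to 25.5% in APP and 26 to 27% in WT, and complex II 4.51 to 4.61% and 3.16 to 4.14%. For each of the 5 complexes and for the assembly factors, the shares of the APP and WT libraries did not overlap. These shares are parts of 1 whole in each library, so they are not independent of each other. The count of calls depended on single libraries: 3 genes were called without APP replicate 2 or without WT replicate 1, 4 without APP replicate 3, 6 without WT replicate 2, and 1 with only the 6-month groups in the fit.

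Transcript length moved with the 6-month result. The chain is made of short transcripts, 59 of 92 under 1000 bases, with a median of 743.5 and a range of 231 to 3632. Of the 18 called genes 16 were under 1000 bases, and of the other 74 genes 43 were. The median log2 change was -0.73 for the 29 coding members under 600 bases, -0.65 for the 27 of 600 to 1000, -0.27 for the 24 of 1000 to 2000 and -0.15 for the 9 of 2000 to 4000. The other coding genes of those length classes had medians of -0.44, -0.30, -0.10 and 0.03. Change and length had a Spearman correlation of 0.65 over the 89 coding members and 0.39 over the 12872 other coding genes, which share the same 6 libraries.

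At 12 months the same correlations were -0.05 and 0.01, and at 3 months -0.09 and -0.06. When the trend with length was taken out of each library before the fit, an alternative chosen after seeing the data, 4 members were called lower at 6 months, where 0.331% of all genes were called lower, and the members' median was -0.40. The part of fragment length or RNA quality in the result was not tested.

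**Figure D3:**
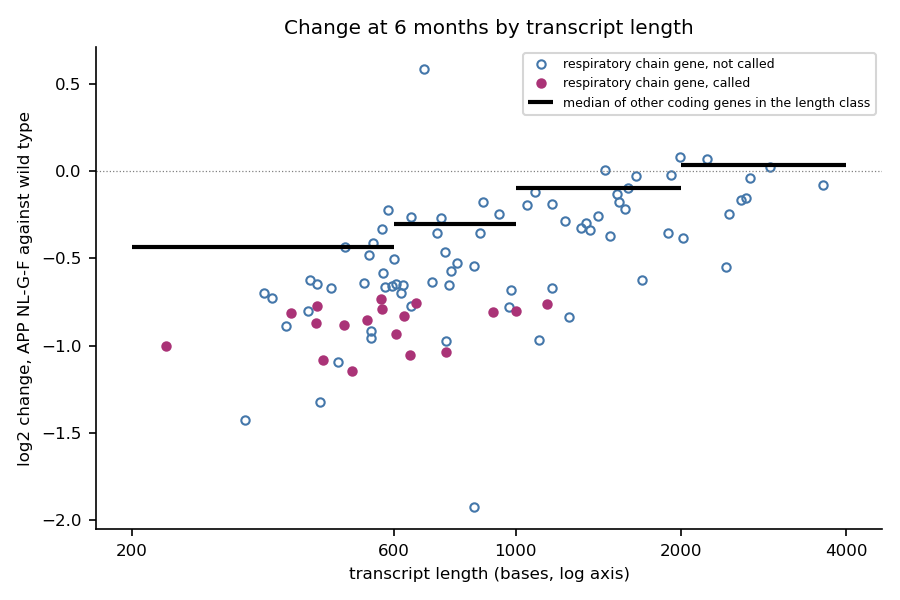
Log2 change at 6 months, APP NL-G-F against wild type (y axis), against transcript length in bases (x axis, log scale) for the 92 genes; filled points are called by limma, open points are not, and the thick lines are the medians of all other coding genes in 4 length classes. The members lie lower towards short transcripts and mostly below the line of their class, at -0.73 against -0.44 under 600 bases.

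Markers of other cell types were read beside these values. At 6 months the 10 choroid plexus markers summed to 108 to 1201 scaled TPM in APP and 1438 to 1736 in WT, with none of the 10 at 0. The 5 blood markers summed to 88.7 to 136.6 against 173.1 to 225.7, and the 7 endothelial markers to 27.5 to 31.7 against 34 to 34.8. Those 3 sums were lower in every APP library, although 4 of the 7 endothelial genes had a change above 0 (median 0.05). In the opposite direction, the 10 hippocampal excitatory markers summed to 1140 to 1291 in APP and 1016 to 1072 in WT (8 of 10 above 0, median 0.36), and the 7 astrocyte markers to 1283 to 1506 against 1134 to 1277 (4 of 7 above 0, median 0.01). Both sums were higher in every APP library. The neuronal sums, 2448 to 2802 in APP and 2413 to 2666 in WT, overlapped, and the oligodendrocyte sums of 922.3 to 1159 and 839.3 to 1108 did too. Their part in the result was not tested. In such bulk tissue, fewer cells of a type and less RNA per cell cannot be told apart.

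RefSeq promoter windows (GRCm38.p6, 250 bases before to 50 after the start) were matched by symbol for 73 of the 92 genes. Genes with no match included Atp5a1, Atp5f1, Atp5mpl, Atp5s, Cox4i1, Cox6a2, Cox6c, Cox6c2, Ndufa2, Ndufaf6, Ndufb4c, Ndufb9, Ndufs1, Ndufs6b, Sdhc, Uqcrb, Uqcrc2 and Uqcrq. Exact matches on both strands were counted for GCGCATGCG (NRF1), CCGGAAG (ETS factors such as GABPA), TCAAGGTCA (ESRRA) and AAGATGGCG (YY1), none of which contains another. The NRF1 letters were in 13.7% of the members' windows and in 1.95% of those of all 27025 symbols in the table. The ETS letters were in 24.7% and 9.93%, the YY1 letters in 11% and 1.64%, and the ESRRA letters in 2.74% and 0.47%. In all, 31 of the 73 had at least 1 match, among them 7 of the 13 genes called at 6 months that had a window.

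The windows of 4 of those genes, each from another complex, are shown from 100 bases before to 20 bases after the annotated start, on the gene's strand, so that the motif can be seen in place. Capitals mark the matched letters. That of Sdhb is chr4:140961171-140961290, of Uqcr11 chr10:80406802-80406921, of Cox6b1 chr7:30626095-30626214 and of Atp5h chr11:115419900-115420019.
Sdhb: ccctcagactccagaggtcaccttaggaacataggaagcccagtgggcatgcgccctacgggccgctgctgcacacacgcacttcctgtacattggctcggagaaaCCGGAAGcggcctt
Uqcr11: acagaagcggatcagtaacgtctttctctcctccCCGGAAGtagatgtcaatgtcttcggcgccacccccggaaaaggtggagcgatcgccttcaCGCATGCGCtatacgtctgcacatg
Cox6b1: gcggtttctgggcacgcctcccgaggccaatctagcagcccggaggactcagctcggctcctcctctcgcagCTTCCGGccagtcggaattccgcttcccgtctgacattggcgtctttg
Atp5h: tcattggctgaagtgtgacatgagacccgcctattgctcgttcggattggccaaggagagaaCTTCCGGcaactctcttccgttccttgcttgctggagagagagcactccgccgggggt

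The ETS letters lie at bases 7 to 13 after the start in Sdhb, at -66 to -60 in Uqcr11, and on the opposite strand at -28 to -22 in Cox6b1 and -38 to -32 in Atp5h. The NRF1 letters of Uqcr11, on the opposite strand, span the start from -5 to 4. In Atp5j2 and Ndufs6, also called at 6 months, the YY1 letters lie after the start, at 24 to 32 and 34 to 42, as in these 30 bases of each (chr5:145191499-145191528 and chr13:73328433-73328462, both minus strand).
Atp5j2: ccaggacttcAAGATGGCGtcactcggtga
Ndufs6: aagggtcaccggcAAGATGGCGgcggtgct

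The factors known to act on these promoters, and other genes of the pathway, were read in the same comparison. Of 17 tested regulator genes, 1 was called at 6 months: Gabpb1, the beta partner of GABPA, rose by 0.59 on the log2 scale (SE 0.14, limma adjusted p = 0.0487), and the list's median was 0. Of 45 other assembly factors 3 fell and none rose: Pet100 (log2 change -0.92), Uqcc2 (-0.88) and Cox16 (-0.78), which serve complex IV, complex III and complex IV. Idh3g, a subunit of isocitrate dehydrogenase, was the only one called of 16 genes of the citric acid cycle (log2 change -0.68, limma adjusted p = 0.0367). None of the 21 genes for electron carriers and metabolite exchange was called (median -0.24). The 13 mRNAs of the mitochondrial genome had no call and a median of -0.44, with all 13 below 0 and summed levels of 36852 to 52970 against 48912 to 79770, which overlap.

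At 3 months no member was called (limma), with 0.297% of all genes called, and 15 had an unadjusted p below 0.05 (14 higher and 1 lower), beside 13.2% of all genes. The median log2 change was 0.19, against 0.01 over all tested genes, and 75 of 92 were above 0. In 28 genes every APP library lay above both WT libraries, which 14.1% of all genes did. The smallest p-values were those of the assembly factor Ndufaf6 (7.43, 7.47 and 9.33 in APP against 5.3 and 1.63 in WT, limma adjusted p = 0.13), the NADH-binding core subunit Ndufv1 (62.4, 63.5 and 58.8 against 46.2 and 39.3, limma adjusted p = 0.132) and Cox7c (82.3, 63.1 and 73.8 against 56.6 and 40.1, limma adjusted p = 0.164). The levels of all 3, picked by their small p-values, were above both WT libraries, but none passed the test. Markers of other regions moved with this comparison: the 10 striatal and thalamic markers had a median change of 1.60 and the 10 hippocampal excitatory markers one of -0.85, and their part was not tested. With TPM as deposited the members' median was 0 and that of all genes -0.16.

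At 12 months, when the plaque-associated glial markers were higher in APP (9 of 10 called), no change of the chain was detected. No member was called by limma (0.454% of all genes were), 3 had an unadjusted p below 0.05 beside 6.98% of all genes, and the median was -0.03. Sdhb had 52.7 ± 5.94 (SD, n = 3) in APP and 55.7 ± 3.96 in WT, and Atp5h 122 ± 9.06 and 104 ± 20.8. Uqcrb, a ubiquinone-binding-site subunit of complex III, was among the 3 smallest p-values without a call (42.6, 58.8 and 45.9 against 68.9, 61 and 65.2, limma adjusted p = 0.595).

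The other 2 were Cox7a2l, whose levels split into separate ranges within groups, and Ndufa12, whose levels varied widely within groups. Cox7a2l, which helps join complexes III and IV into supercomplexes, stood at 62.2, 58.6 and 57.6 in APP at 12 months and at 5.99, 55.8 and 8.05 in WT. It was also at 6.26 in APP replicate 1 at 6 months, while 14 of the 17 mouse libraries lay between 40.6 and 80.3. In HT-22 cells it was between 3.3 and 5.23 in 6 libraries and between 110 and 130 in the other 8, with both ranges present in 4 of 4 groups. Ndufa12, a complex I subunit, ranged from 2.15 to 35.8 over the mouse libraries and from 2.25 to 46 over the HT-22 libraries. At 12 months it stood at 5.64, 3.46 and 25.9 in APP and 25.8, 29.5 and 35.8 in WT (limma adjusted p = 0.582), so 1 APP library lay within the WT range.

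Averaged over the ages, no member was called by limma (0.219% of all genes were), 21 had an unadjusted p below 0.05 beside 12.2% of all genes, and the median was -0.13. Whether the genotype effect differed between ages was tested directly (limma F-test of the interaction). The WT libraries held Xist at 3 months and Ddx3y at 6 and 12 months, so an effect of age on the genotype difference and this switch cannot be told apart. The reference of the test is the 3-month difference, where region markers also differed. Striatal and thalamic markers summed to 90.5 to 543.7 scaled TPM in APP and 72.6 to 82.1 in WT at 3 months. Hippocampal excitatory markers summed to 412.3 to 1074 and 1231 to 1323. Their part in the interaction was not tested. The interaction was called for 3 members, Atp5h (adjusted p = 0.0266), Sdhb (0.0426) and Ndufb5 (0.0437), where 0.448% of all genes were called. At an unadjusted p below 0.05 there were 52 members, beside 15.8% of all genes. For Atp5h the log2 change between genotypes was 0.38 at 3 months, -1.05 at 6 months and 0.24 at 12 months. For Sdhb it was 0.19, -0.76 and -0.08, and for Ndufb5 0.30, -0.83 and -0.10. In all 3 genes the 6-month value stood apart, but no interaction was called for any member without WT replicate 1 at 6 months, without APP replicate 3 at 6 months, without WT replicate 2 at 3 months, or without APP replicate 1 or 3 at 12 months. Only 1 was called without APP replicate 2 at 6 or at 12 months, WT replicate 1 at 3 months or any WT library at 12 months, against 5 without APP replicate 1 at 6 months and 6 without APP replicate 2 at 3 months. With TPM as deposited 4 members were called, where 33.1% of all genes were. In 3 of these 4 the genotype difference was higher at 6 than at 3 months, and the F-test itself has no direction. Uqcc2, the assembly factor of complex III, was also called (adjusted p = 0.0426).

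Between 3 and 12 months no member was called by limma in either genotype. From 3 to 12 months in APP, 0 of 92 genes passed (3.35% of all genes did), 2 had an unadjusted p below 0.05 beside 16.5% of all genes, and the median was -0.04. In WT, where the 3-month libraries held Xist and the 12-month libraries Ddx3y so that age and this difference cannot be told apart, the corresponding count was 0 (0.0617% of all genes), with 8 at an unadjusted p below 0.05 beside 8.34%, and the median was 0.17, or -0.14 with TPM as deposited, where all genes had -0.29. The smallest p-values in APP were those of Ndufa10, Ndufa6 and Atp5g1 (limma adjusted p = 0.239, 0.254 and 0.326), and in WT those of Ndufaf2, Atp5e and Atp5j2 (0.419, 0.474 and 0.474). None of these was called. Of the 21 genes for electron carriers and exchange, Coq8a and Coq2 of ubiquinone synthesis rose with age in APP (log2 changes 0.49 and 0.40, limma adjusted p = 0.0387 and 0.0438).

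Several subunits exist as paralogs with different tissue use, and the share of each within its family was read in every library. In the hippocampus Cox4i2, the isoform of lung and vascular cells, made up 0 to 0.481% of Cox4i1 plus Cox4i2, and Cox6a2, the heart and muscle isoform, 0.425 to 4.35% of Cox6a1 plus Cox6a2. Cox7a1 reached 3.42% of its pair, Cox8b 2.76%, Cox6b2 4.08% and Ndufa4l2 1.58%. No minor isoform of a pair exceeded 4.35% in any hippocampal library. Among the genes for subunit c of the ATP synthase ring, which encode the same mature protein, Atp5g3 made up 84% ± 3.81 (SD, n = 17), Atp5g1 10.1% ± 3.48 and Atp5g2 5.87% ± 1.92. At 6 months the Ndufa4l2 share was 1.58, 0.978 and 0.913% in APP and 0.613, 0.195 and 0.525% in WT, without overlap. At 3 months the direction was the opposite, also without overlap, at 0.608, 0.435 and 0.424% in APP and 1.11 and 1.45% in WT. The genotypes overlapped at 12 months. For Cox6a2 the shares at 6 months were 1.83, 1.51 and 0.612% against 0.629, 0.449 and 0.425%, with overlap. The shares of both genes rest on isoforms near the low end of the measured range.

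In HT-22 cells the main isoform of each family was the same, and the shares of Atp5g2, Atp5g3 and Cox6a2 did not overlap with those of the hippocampus. Atp5g2 made up 23.6% ± 1.89 (SD, n = 14) of the subunit c genes, between 19.9 and 26.7%, where no hippocampal library exceeded 12.3%, and Atp5g3 made up 70.6% ± 3.33 (65.1 to 75%, against 75.4 to 89.4% in the hippocampus). The level of Atp5g2 was 42.4 to 116 TPM in HT-22 cells and 6.57 to 21.6 TPM in the hippocampus. It was the only member above every hippocampal library in every HT-22 library. In the opposite direction, 6 members were higher in every hippocampal library: Ndufa1 (47.8 to 107 TPM against 18.8 to 37.8), Ndufb3 (32.2 to 60.8 against 13.9 to 31), the assembly factor Ndufaf3 (9.62 to 18.8 against 0.971 to 6.89), Atp5s (6.2 to 13.6 against 1.12 to 3.94), Cox6b2 (2.36 to 6.25 against 0 to 2.18) and Cox6a2, listed at 0 in all 14 HT-22 libraries. These levels are TPM as deposited. Tissue and cell line were sequenced as different materials, and these values are a description. The share of all genes that separate tissue and cell line in this way was not counted. These counts therefore say nothing particular about the chain.

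**Figure D4:**
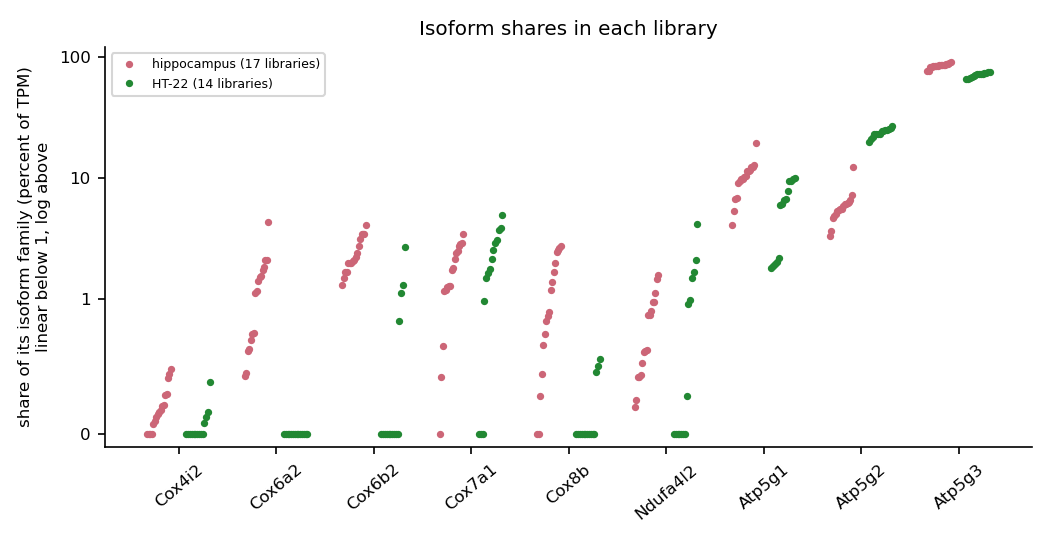
Share of each isoform in its family, in percent of TPM (y axis, linear below 1 and logarithmic above), for 9 isoforms (x axis); each point is 1 library, red for the 17 hippocampal and green for the 14 HT-22 libraries, sorted by value. Atp5g2 lies at 19.9 to 26.7% in HT-22 cells and at 3.29 to 12.3% in the hippocampus, and Cox6a2 is at 0 in every HT-22 library.

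In HT-22 cells no member passed the test in any comparison of peptide or LNA, of 89 tested (Cox6a2, Cox6b2 and Cox8b fell below the minimum mean). For Aβ42 against the reverse peptide with scramble LNA, limma called 0 members and 0% of all 17291 genes. At an unadjusted p below 0.05 there were 21 members, 20 of them lower, beside 4.96% of all genes, and the median log2 change was -0.18, or -0.02 with TPM as deposited, where all genes had 0.15. Complex IV had the lowest median, -0.38, with summed levels of 1072, 1167, 1073 and 1007 scaled TPM with Aβ42 and 1451, 1079, 1313 and 1572 with the reverse peptide, which overlap. Reverse-peptide replicate 4, the deepest HT-22 library, was the highest of all 14 for 31 of the 92 genes.

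The smallest p-values in that comparison were those of Uqcr11, Cox8a and Ndufa3. Uqcr11 stood at 22.2, 24.1, 34.9 and 39.7 with Aβ42 and 71.1, 39.5, 46.7 and 72.1 with the reverse peptide (log2 change -0.90, limma adjusted p = 0.812). Cox8a stood at 131, 167, 137 and 135 against 228, 172, 200 and 190, and Ndufa3 at 32.4, 33.3, 33.6 and 30 against 52.9, 76.1, 42.2 and 77. The peptide groups did not overlap for Cox8a and Ndufa3, and overlapped by a narrow margin for Uqcr11. These genes were picked by smallest p-value, so the lack of overlap adds no support. The correlation of change with transcript length was 0.60 over the 86 coding members tested and 0.24 over 11012 other coding genes, and the 13 mitochondrial mRNAs had a median of -0.92 with no call.

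With anti-Hsf1 LNA, the same peptide comparison gave 0 calls by limma (0% of all genes), 7 unadjusted beside 4.65%, and a median of 0.13. Ndufb4, Ndufa4 and Cox8a had the smallest p-values, all with a limma adjusted p of 1. Their log2 changes were 0.80, 0.57 and 0.40, and those of Ndufa4 and Cox8a were -0.02 and -0.19 with TPM as deposited. Anti-Hsf1 against scramble with the reverse peptide gave 0 calls (0%), 6 unadjusted beside 3.65%, and a median of -0.16, with Atp5mpl, Cox8a and Ndufb4 at the smallest p (limma adjusted p = 0.959 each). Cox8a stood at 117, 162 and 145 against 228, 172, 200 and 190, without overlap. It was picked by its small p-value, so this adds no support.

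Anti-Hsf1 against scramble with Aβ42 gave 0 calls by limma (0.0231% of all genes), 21 unadjusted (18 higher) beside 8.99%, and a median of 0.19. Change and transcript length had a Spearman correlation of -0.44 over the coding members and -0.14 over other coding genes. Members and other coding genes had medians of 0.275 and 0.258 under 600 bases, and 0.256 and 0.103 at 600 to 1000. The smallest p-values belonged to the assembly factor Ndufaf2, the small ATP synthase subunit gene Atp5k and Ndufa4. Ndufaf2 stood at 27.7, 29 and 19.1 with anti-Hsf1 and at 8.54, 14.1, 8.3 and 8 with scramble (log2 change 1.31, SE 0.27, limma adjusted p = 0.216). Atp5k stood at 98.3, 86.5 and 33.2 against 18.1, 26.8, 12.2 and 13.7 (log2 change 1.90, limma adjusted p = 0.252). Its copy Atp5k-ps2 was at 12.8, 19.5 and 5.07 against 0, 0.909, 0 and 0.731, so the division of reads between the pair is uncertain. Ndufa4 stood at 209, 165 and 103 against 78.7, 102, 80.4 and 80.4 (limma adjusted p = 0.305).

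The LNA groups did not overlap for these 3 genes, but the genes were picked by smallest p-value. The lack of overlap therefore adds no support. The direction of the members as a whole depended on the scaling. With TPM as deposited 46 members were called lower and 1 higher in that comparison, where 50.5% of all genes were called lower, with a members' median of -0.52 and a median of -0.62 over all genes, and 18 members were called lower for the peptide comparison with anti-Hsf1, where 24.2% of all genes were. Under the scaling used here the members' medians were 0.19 for that LNA comparison and 0.13 for the peptide comparison with anti-Hsf1. The interaction of peptide and LNA gave 0 calls by limma (0%), 21 unadjusted beside 5.14% and a median of 0.34. Cox8a, Uqcr11 and Ndufb4 had the smallest p (limma adjusted p = 0.677, 0.677 and 0.766). Change and transcript length correlated at -0.52 over the coding members and -0.26 over other coding genes. Comparisons that share a group of libraries are not independent of each other.

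**Figure D5:**
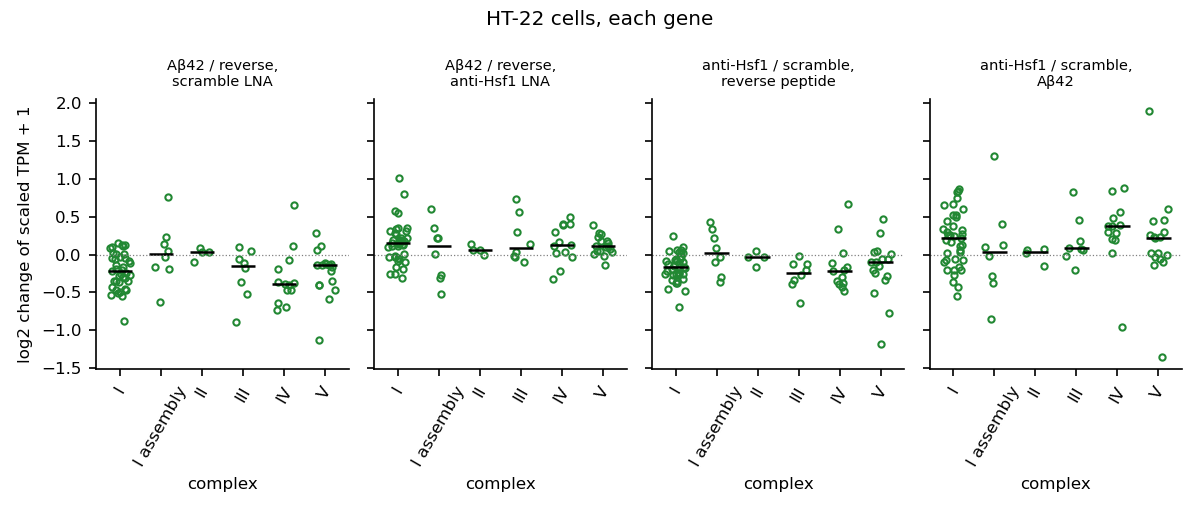
Log2 change of scaled TPM + 1 (y axis) of the 89 tested genes by complex (x axis) in HT-22 cells, in 1 panel per comparison; open points are genes, none of which was called by limma, and bars are medians. The complex IV median is -0.38 for Aβ42 against the reverse peptide with scramble LNA and 0.38 for anti-Hsf1 against scramble LNA with Aβ42.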

How the data were processed

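Long-RNA libraries of 17 hippocampi and 14 HT-22 cultures were used, and the 31 short-RNA libraries were not analysed here. Values are TPM, FPKM and per-gene coverage (a signal) as the authors deposited them in 1 gene table per library. The submitters' processing notes name HISAT2 2.1.0, StringTie 1.3.4d, cutadapt 1.18, BWA 0.7.17, bedtools 2.26.0 and FastQC and the builds mm10 and GRCm38, with no role or order; no source used here gives read totals. FPKM and coverage served for relative depth. Per the file headers, genes carry Ensembl identifiers; all 92 members were found in GENCODE M21, 86 at the same position.

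TPM was divided by median-of-ratios factors, set apart for mouse and HT-22, and log2(scaled TPM + 1) was fitted in limma 3.58.1 (R 4.3.3), 1 fit per system with a mean per group, trended and robust empirical Bayes and Benjamini-Hochberg adjustment over all genes with a mean of at least 1 TPM (17840 and 17291). Changes are on the log2(value + 1) scale, which understates changes of low genes. The fit was tested on simulated data. Transcript lengths are from GENCODE M21. Replicates were mice, or cultures that the labels call biological replicates. Replicate numbers in the labels were not treated as pairs. Same-numbered libraries of different groups had correlations of deviations from -0.147 to 0.228 in mouse and -0.217 to 0.575 in HT-22. Aβ42 and reverse peptide with scramble LNA had 0.231, 0.247, -0.217 and 0.575, so pairing in that comparison cannot be decided.

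Named in the text are, per comparison, called members (the 10 largest changes in each direction) or the 3 smallest p-values where none was called, the 2 most abundant members of each complex, the isoform pairs and Cox7a2l, and up to 3 called genes per pathway list. Other members named with values (Cox7b, Uqcr10, Ndufb11, Ndufb6, Ndufs6, Ndufb4c and Uqcrfs1, Sdhc and Sdhd at 6 months, Atp5k-ps2 and those that separate hippocampus from HT-22 cells) were chosen after their values were seen. The members and lists were chosen with earlier results of these data known.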

Additional observations from a re-analysis of the deposited data

Results flagged for a closer look

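The genotype effect differed between ages by limma's interaction test for Atp5h (adjusted p = 0.0266), Sdhb (adjusted p = 0.0426) and Ndufb5 (adjusted p = 0.0437). The WT libraries held Xist or Ddx3y depending on age, so an effect of age and this switch cannot be told apart. Region markers also differed between the genotypes at 3 months, the reference of this test, and their part was not tested. In the groups of 4 HT-22 libraries, 1 library stood far from the other 3 (Dixon's criterion) in 7 of 108 values tested, and chance flags about 1 in 20. With Aβ42 and scramble LNA, replicate 2 had the highest Ndufa4 (102 scaled TPM against 78.7 to 80.4), Cox8a (167 against 131 to 137) and Ndufaf2 (14.1 against 8 to 8.54), and replicate 3 the highest Ndufb9 (90.4 against 83.6 to 84.8). With the reverse peptide and scramble LNA, replicate 4 had the highest Sdhb (53.5 against 39.7 to 41.3) and Atp5a1 (303 against 217 to 227), and a Cox4i2 share of 0.126% where the other 3 libraries were at 0.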

How the results depend on the processing

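Alternatives were TPM as deposited, quantile normalisation, pseudocounts of 0.1 and 5, no minimum TPM, a minimum of 5, array weights, an untrended prior, only the contrast's groups, the replicate block, leaving out libraries and, chosen after seeing the data, removal of the length trend. The 18 members called at 6 months became 19 (18 higher) with TPM as deposited, 5 with no minimum, 11 with the untrended prior, 1 with only the 6-month groups, 4 without the length trend and 3 to 19 on leaving out a library. The 3 interaction members became 4 with TPM as deposited, of which 3 had a genotype difference higher at 6 than at 3 months. The interaction count became 1 with no minimum, 5 with a minimum of 5, 1 with the untrended prior, 1 without the length trend and 0 to 6 on leaving out a library. With TPM as deposited, the mean of the ages gave 3 calls, the peptide comparison with anti-Hsf1 18, anti-Hsf1 against scramble with Aβ42 47 and the peptide by LNA interaction 17. That LNA comparison with Aβ42 gave 9 calls with array weights and 0 to 1 on leaving out a library, and APP at 12 against 3 months 0 to 1. With replicate number as a block, a number not shown to pair the samples, 25 members were called at 6 months and 8 in the interaction. The other 10 counts stayed at 0. The log2 ratios of the complex totals at 6 months changed sign with TPM as deposited: complex I from -0.58 to 0.16, the assembly factors from -0.23 to 0.50, complex II from -0.20 to 0.52, III from -0.67 to 0.07, IV from -0.64 to 0.10, V from -0.39 to 0.36 and all members from -0.53 to 0.21. They kept their sign on leaving out any 1 of the 6 libraries (all members -0.62 to -0.39). Of the named genes, Ndufa4 (-0.019) and Cox8a (-0.19) changed sign with TPM as deposited in the peptide comparison with anti-Hsf1. Isoform shares from FPKM equal those from TPM by construction. The causes were not tested, and the fits that leave some libraries out also have fewer samples. Read totals are unknown, so no counting interval can be given for genes near 0.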

Other observations

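As group means over the 6 mouse groups, complexes I, IV and V made up 31.4 to 32.6%, 24.5 to 26.3% and 26.7 to 29.3% of the summed level of the 92 genes, and the 8 assembly factors 1.46 to 1.79%. In the 4 HT-22 groups complex V made up 35.8 to 38.2% and complex IV 19.3 to 21.4%.

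Atp5g1 fell into separate ranges within HT-22 groups, at 5.5 to 6.79 scaled TPM in 5 libraries and 17.9 to 46.5 in the other 9.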
